A study of Mus musculus with 6 samples.

Results

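Peaks of histone H3 lysine 9 acetylation (H3K9ac) that lie in the second or a later intron of a gene, away from promoters, are described here in lung endothelial cells isolated from mice. A peak was taken where the authors' deposited annotation placed it in an intron other than intron 1, more than 3000 bp from the nearest transcription start, and named neither a CpG island nor a repeat element for it. This gave 2596 peaks, or 14.5% of the 17901 peaks of the table, in 1667 genes. H3K9ac was mapped by CUT&RUN, in which a nuclease tethered to an antibody releases the DNA under the marked nucleosomes for sequencing. The 3 CSE-KO libraries came from Cre-positive mice and the 3 WT libraries from Cre-negative mice. The deleted gene, Cth, encodes cystathionine gamma-lyase (CSE), which splits cystathionine to yield cysteine. The labels used here give neither the promoter that drives Cre nor the age or sex of the mice, and they leave unstated whether each library is another animal. The p-values therefore rest on variation among these 6 libraries, part or all of which may be technical.

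Acetylation of lysine 9 on histone H3 is placed by acetyltransferases that use acetyl-CoA and is removed by deacetylases. The mark is strongest at active promoters and is also found at active enhancers, which are stretches of DNA that raise the transcription of a gene from a distance. Many enhancers of mammalian genes lie in introns, and an intronic enhancer may act on its own gene or on a neighbour. Peaks in introns can also mark the start of a transcript inside the gene.

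The counts over all peaks were 1173016, 679938 and 685131 in the CSE-KO libraries, against 676056, 313610 and 610922 in the WT libraries. Each CSE-KO library was thus deeper than each WT library, and WT replicate 2 was the shallowest. Levels are given as CPM, which are counts relative to the summed counts of the peaks in each library and scaled to a common size, so a change of the mark common to all peaks would not appear in them. In cells taken in bulk, fewer cells that carry the mark at a peak and less of the mark per cell cannot be told apart. The table has 0 rows named for Cth, so the deleted gene could not be checked in these libraries.

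The annotation of these peaks was first compared with transcript starts, since a peak inside a gene can mark the start of another transcript. Of the later-intron peaks, 16 (0.616%) held the start of a RefSeq gene that the deposited annotation did not use as the nearest start, and 16 of the 17 starts so found belonged to long noncoding RNAs. Sequences are shown for the 4 most acetylated of these peaks that hold a whole window of 250 bases before to 50 bases after the start. They are RefSeq windows on GRCm38.p6, all on the minus strand and written 5′ to 3′, and the capitals mark each CG dinucleotide, the letters that are dense at CpG-island promoters. The window of Lrrc70 and of the readthrough transcript Ipo11-lrrc70 (chr13:106836253-106836552) lies in an intron of Ipo11, that of Gm9968 (chr16:43363617-43363916) in Zbtb20, that of Gm46030 (chr8:11340057-11340356) in Col4a2 and that of Gm19417 (chr4:97868960-97869259) in Nfia.
Lrrc70: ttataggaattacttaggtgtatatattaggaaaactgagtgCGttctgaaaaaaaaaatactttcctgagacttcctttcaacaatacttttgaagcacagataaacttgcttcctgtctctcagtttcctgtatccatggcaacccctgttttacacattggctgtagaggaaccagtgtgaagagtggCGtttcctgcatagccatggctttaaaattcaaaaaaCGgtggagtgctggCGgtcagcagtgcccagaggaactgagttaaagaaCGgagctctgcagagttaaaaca
Gm9968: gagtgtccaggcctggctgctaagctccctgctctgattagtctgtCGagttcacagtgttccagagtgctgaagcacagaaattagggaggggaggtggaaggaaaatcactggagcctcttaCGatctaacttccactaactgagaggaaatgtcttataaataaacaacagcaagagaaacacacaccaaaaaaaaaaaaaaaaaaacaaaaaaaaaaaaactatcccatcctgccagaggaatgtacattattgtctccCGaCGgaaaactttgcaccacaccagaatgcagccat
Gm46030: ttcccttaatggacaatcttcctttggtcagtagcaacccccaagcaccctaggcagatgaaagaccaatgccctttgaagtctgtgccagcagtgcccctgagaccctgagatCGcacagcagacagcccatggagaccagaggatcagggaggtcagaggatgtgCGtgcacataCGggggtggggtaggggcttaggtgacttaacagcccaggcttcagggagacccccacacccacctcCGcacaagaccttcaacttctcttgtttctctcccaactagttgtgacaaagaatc
Gm19417: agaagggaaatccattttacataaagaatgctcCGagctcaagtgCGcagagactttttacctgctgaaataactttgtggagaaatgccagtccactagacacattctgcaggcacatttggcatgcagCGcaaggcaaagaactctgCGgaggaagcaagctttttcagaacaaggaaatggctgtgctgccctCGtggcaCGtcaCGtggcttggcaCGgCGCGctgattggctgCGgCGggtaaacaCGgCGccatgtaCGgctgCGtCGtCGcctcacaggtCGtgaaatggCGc

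The first 3 windows held few CG, with 5 for Lrrc70, 4 for Gm9968 and 4 for Gm46030, while that of Gm19417 held 20. The median of all 32851 RefSeq windows of this length was 7. Of all windows, 62.0% held at least 5, 68.6% at least 4 and 26.5% at least 20. The letters TATAAA were found once, in the window of Gm9968, and 13.6% of all windows hold them on either strand. The letters CCGGAAG of ETS factors (8.86% of all windows), TGANTCA of AP-1 (7.81%) and GGGCGG of SP and KLF factors (35.7%) were searched on both strands and found in none of the 4. CCGGAAG and GGGCGG each contain a CG, so those motifs overlap with the dinucleotide count. A match describes the letters of the window, and no match says only that these letters are not in it.

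These 4 peaks were well acetylated in both groups. The peak of Lrrc70 in Ipo11, which encodes an importin, had 152, 181 and 112 CPM in CSE-KO cells, against 122, 152 and 146 CPM in WT cells. The peak of Gm9968 in Zbtb20, a zinc-finger repressor, had 117, 151 and 129 CPM in CSE-KO cells, against 138, 93.7 and 138 CPM in WT cells. The groups overlapped at both. The Gm46030 peak in Col4a2, a collagen chain of basement membranes, had 63.5, 61.4 and 97.0 CPM in CSE-KO cells, against 62.3, 103 and 72.4 CPM in WT cells. The Gm19417 peak in Nfia, a transcription factor of the nuclear factor I family, averaged 70.8 ± 8.97 CPM in CSE-KO cells and 80.4 ± 1.32 CPM in WT cells (SD, n = 3 each, as in all such values). Over the 16 peaks with a start inside, the median level was 53.5 CPM, against 29.1 CPM at the other later-intron peaks, but they were also wider (median 1126.5 bp against 626.5 bp), and per kb of peak the medians were 49.8 and 45.6 CPM. All 16 were tested between the groups, 0 passed, 3 had an unadjusted p under 0.05 by edgeR's quasi-likelihood test (18.8%, against 7.08% of all tested peaks), and 8 fitted fold changes lay above and 8 below 0.

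The later-intron peaks were narrow, low and far from the nearest start. The median width was 629 bp, with quartiles of 391 and 971.25 bp and a range of 237 to 6565 bp. The median distance to the nearest start was 37.3 kb, with quartiles of 17.5 and 75.4 kb, and 422 peaks lay beyond 100 kb. For 1030 peaks (39.7%) the nearest start belonged to a gene other than the one whose intron holds the peak, so peaks are named here for the host gene. The median intron number was 4, and the highest was intron 99 of 118 in Col7a1, which encodes the anchoring-fibril collagen. At the distance limit of the rule, the nearest peaks inside were in Tspan32 (3045 bp; 40.1 CPM over the 6 libraries), Fam178b (3049 bp; 8.62 CPM) and Fstl3 (3056 bp; 14.3 CPM), and among the nearest left outside were those in Map4k2 (2967 bp; 52.9 CPM) and Tars2 (2980 bp; 7.39 CPM).

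Among the later-intron peaks of the table, the median level per kb differed little by where in the gene they lay. The median level was 32.7 CPM in intron 2 (732 peaks), 30.9 CPM in intron 3 (401), 28.0 CPM in introns 4 to 5 (455), 24.9 CPM in introns 6 to 10 (535) and 27.7 CPM in intron 11 or later (473). Per kb of peak the same medians ran only from 43.8 to 46.9 CPM, since peaks in intron 2 were also wider (median 675.5 bp) than those in introns 6 to 10 (570 bp). By distance to the nearest start, the median per kb was 47.3 CPM at 3 to 10 kb and 45.0 CPM beyond 100 kb. In the last intron of a gene, 254 peaks had a median of 43.9 CPM per kb, against 45.9 CPM per kb in the 2342 others. Width set the level per peak most: peaks up to 400 bp had a median of 13.4 CPM, and peaks over 1000 bp had a median of 66.0 CPM.

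**Figure D1:**
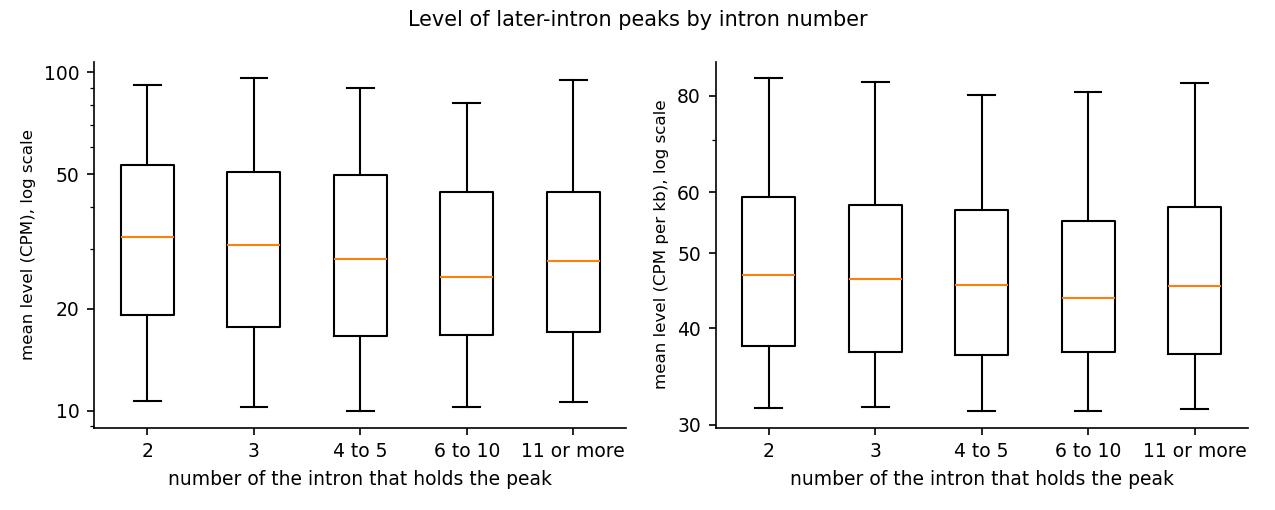
Mean level over the 6 libraries of the 2596 later-intron peaks, by the number of the intron that holds the peak, in CPM (left) and in CPM per kb of peak (right), both on log axes. Lines are medians, boxes quartiles and whiskers the 5th and 95th percentiles; the medians per kb lie between 43.8 and 46.9 CPM.

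Against the other classes of peaks, those in later introns were less acetylated than those in first introns and much like those between genes. The median level of later-intron peaks was 29.2 CPM, against 32.6 CPM at 1336 first-intron peaks beyond 3000 bp, 29.0 CPM at 1702 intergenic peaks within 50 kb of a start and 64.9 CPM at 2887 promoter peaks, all without a CpG island or repeat. Per kb of peak these medians were 45.6, 48.8, 47.0 and 59.1 CPM. On the log2 CPM scale the median of later-intron peaks lay below that of first-intron peaks by 0.10 to 0.20 in 6 of 6 libraries (mean difference -0.15 ± 0.04, SD). On the log2 CPM per kb scale the mean difference was -0.09 ± 0.01. Both had an adjusted p of 0.0468 by an exact two-sided sign-flip permutation test over 6 libraries, whose smallest raw p is 0.0312, with Benjamini-Hochberg adjustment over 6 comparisons. Against promoter peaks the mean difference was -1.11 ± 0.06 (log2 CPM) and -0.33 ± 0.07 (log2 CPM per kb), with the same adjusted p in each. Against intergenic peaks the differences of 0.03 ± 0.08 (log2 CPM, adjusted p = 0.375, exact test) and -0.05 ± 0.04 (log2 CPM per kb, adjusted p = 0.15, exact test) did not pass. All 6 libraries share the same peaks, which were the authors' calls. A cut on level per kb among those calls would also narrow the differences per kb.

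Most host genes held 1 later-intron peak (1192 of 1667), and 62 held 5 or more. Tcf4 held 18, more than any other gene, over 294 kb of chromosome 18 in introns 3 to 15. It encodes a basic helix-loop-helix transcription factor, E2-2. Next came Abca4, a retinoid transporter, Etv6, an ETS-family repressor needed in blood and vessel development, Mast4, a kinase, Nsmce2, a SUMO ligase, Pde4d, a cyclic AMP phosphodiesterase, and Ttc28, with 9 each.

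The sum over the 18 Tcf4 peaks was 1440.3, 1433 and 1321 CPM in CSE-KO cells, against 1450.3, 1215 and 1465 CPM in WT cells. The groups overlapped, and the log2 fold change of the summed counts was 0.02 (SE 0.08). Of the 17 Tcf4 peaks that could be tested, 9 had a fitted fold change above 0 and 8 below. The peak of highest level, in intron 6 (chr18:69522015-69524074), had 298, 273 and 253 CPM in CSE-KO cells, against 335, 310.2 and 230.4 CPM in WT cells, and its log2 fold change of -0.08 (SE 0.14) became 0.06 without WT replicate 1. The levels within the gene thus ran from 7.41 to 283 CPM over the 6 libraries with no peak past the threshold in either direction.

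Among the 14 genes with 8 or more later-intron peaks, the summed levels did not overlap between the groups at Rptor, Gnaq, Inpp4b and Ppm1h. All of these were higher in CSE-KO cells, and none of the sums passed the threshold. At Ppm1h the lowest CSE-KO sum was 181 CPM and the highest WT sum 179 CPM. Over all tested single peaks the groups did not overlap at 13.0%, with CSE-KO higher at 6.09%. No such share was taken over gene sums, which differ in depth from single peaks. Rptor, Gnaq, Inpp4b and Ppm1h were named for their separation, after their values were seen. The 9 peaks of Pde4d summed to 738, 580.4 and 665 CPM in CSE-KO cells, against 512, 595 and 568 CPM in WT cells, with 7 of 9 fitted fold changes above 0, as at 7 of 8 peaks of Zbtb20. Of all tested later-intron peaks, 55.9% had a fold change above 0. The Pde4d groups overlapped, and the log2 fold change of the sum was 0.26 (SE 0.11, adjusted p = 0.653, edgeR). Rptor encodes raptor, the scaffold of the amino-acid-responsive kinase complex mTORC1, and was taken up after its values were seen. Its 8 peaks summed to 233, 279 and 224 CPM in CSE-KO cells, against 200.2, 204 and 151 CPM in WT cells. The groups did not overlap, and 7 of 8 fitted fold changes lay above 0. The fitted change of the summed counts, 0.42 on the log2 scale (SE 0.15), did not pass (edgeR, adjusted p = 0.612).

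**Figure D2:**
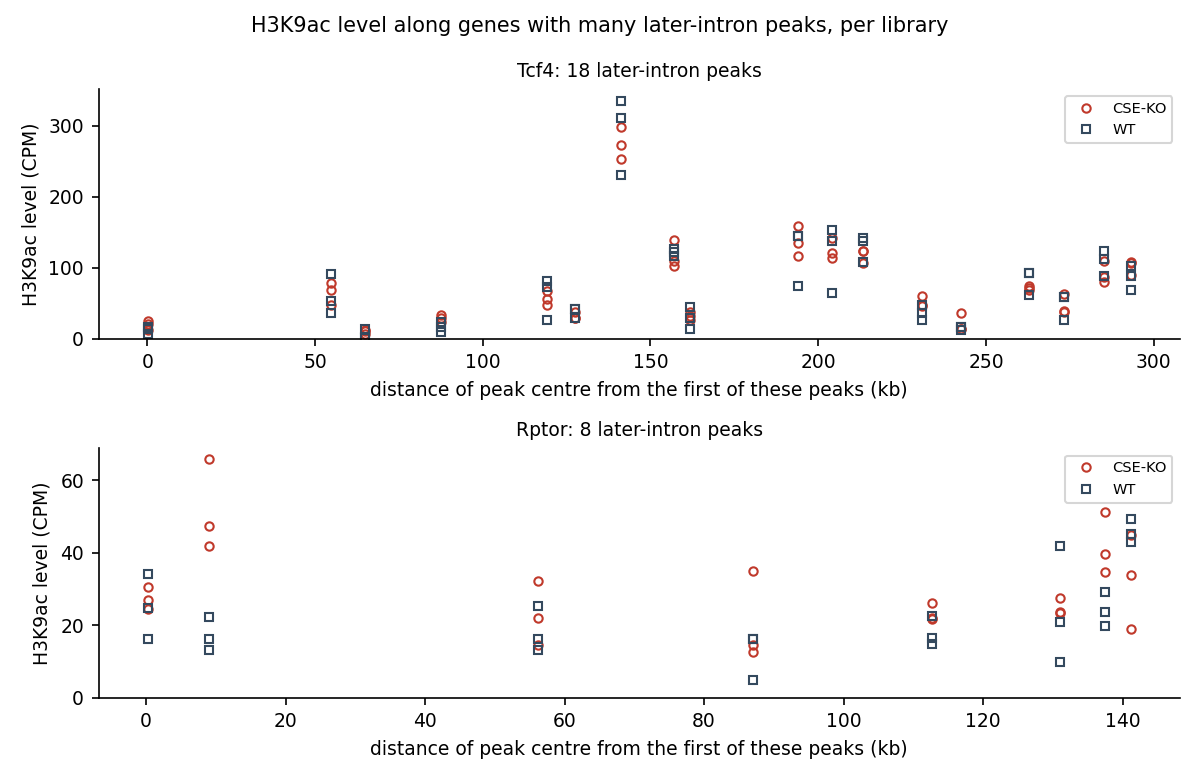
Level (CPM) in each library at the 18 later-intron peaks of Tcf4 and the 8 of Rptor, against the distance of each peak's centre from the start of the first of them in kb; circles are CSE-KO and squares WT libraries. At Tcf4 the groups overlap at the tallest peak (253 to 298 CPM in CSE-KO, 230.4 to 335 CPM in WT), and at Rptor they stand apart at the second peak (42.0 to 65.8 CPM in CSE-KO, 13.2 to 22.2 CPM in WT).

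Of the 1664 host genes that could be placed on GRCm38.p6, 942 (56.6%) also had a peak within 1 kb of a start of their own. Where both levels were known (941 genes), the highest later-intron peak was above the highest start peak in 226 genes (24.0%), and the median ratio of start peak to intron peak was 1.76 in CPM.

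The question for the comparison of CSE-KO with WT was whether loss of CSE changed acetylation at these peaks. One later-intron peak passed the threshold, in Anpep, where acetylation was higher in CSE-KO cells. None of the other tested peaks did. A filter on low counts left 2195 of the 2596 peaks (84.6%) and removed 401, while it left 90.1% of all peaks. The called peak is 0.0456% of those tested, and 0.0868% of all 16134 tested peaks were called in either direction (edgeR's quasi-likelihood test, Benjamini-Hochberg adjusted p under 0.05 over all peaks). With the MuLV-int repeat peaks left out of the fit, an alternative added after the data were seen, 2 peaks of all classes were called in place of 14, and Anpep was one of them. DESeq2 and limma voom, run on the same peaks, also called the Anpep peak (adjusted p = 0.0235 and 0.0394) and no other later-intron peak. By direction, 0.0248% of all tested peaks were called higher in CSE-KO and 0.062% lower.

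An unadjusted p under 0.05 was found at 183 later-intron peaks (8.34%), against 7.08% of all tested peaks. Of the 183, 101 were higher in CSE-KO (4.6% of those tested, against 3.01% of all) and 82 lower (3.74%, against 4.07% of all). The 3 CSE-KO and 3 WT levels did not overlap at 309 later-intron peaks (14.1%), against 13.0% of all tested peaks. Of these 309, 178 were higher (8.11%, against 6.09% of all) and 131 lower (5.97%, against 6.9% of all). The median log2 fold change was 0.053, against -0.00034 over all tested peaks, and 1226 of 2195 fold changes (55.9%) lay above 0, against 49.9% of all. Within 0.5 on the log2 scale lay 75.9% of the later-intron peaks and 83.5% of all. These values were not particular to later introns. First-intron peaks beyond 3000 bp had a median of 0.088, with 60.5% above 0 and 76.5% within 0.5. An unadjusted p under 0.05 was found at 9.04% of them. Intergenic peaks within 50 kb had a median of 0.0, with 50.1% above 0, 76.3% within 0.5 and 8.45% at that p. At promoter peaks 91.0% lay within 0.5 and 5.36% had that p. The later-intron peaks, tested or not, were also shallower, with a median of 20.3 counts per library, against 28.8 over all peaks. The median SE of the tested later-intron peaks was 0.35, against 0.30 over all tested peaks.

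**Figure D3:**
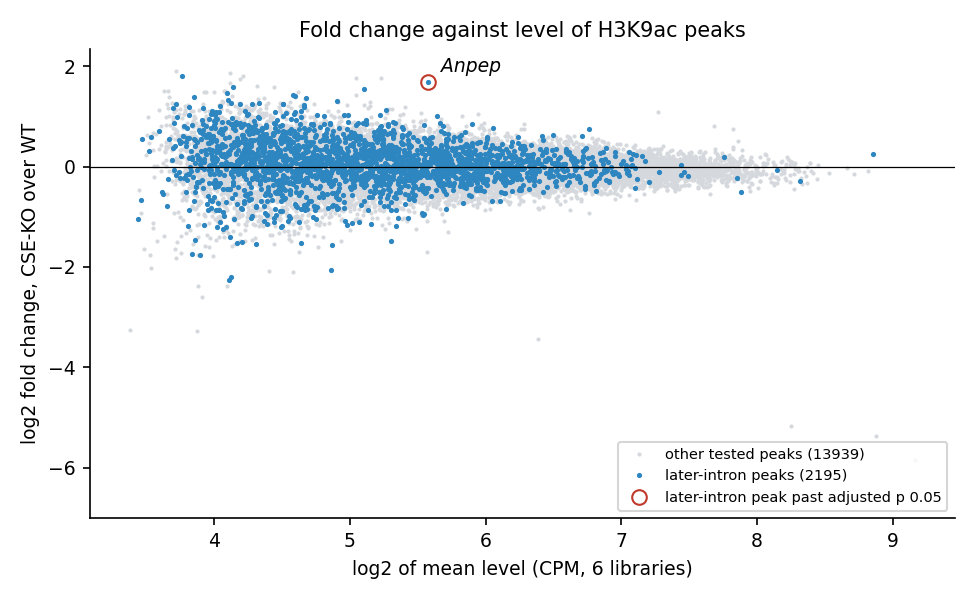
Fitted log2 fold change (CSE-KO over WT) against the log2 of the mean level (CPM) for the 2195 tested later-intron peaks (blue) and the 13939 other tested peaks (grey); the red ring marks the later-intron peak past the threshold. The later-intron peaks lie on both sides of 0 (1226 above and 969 below, median 0.053) and spread more at low levels; the ringed Anpep peak has a log2 fold change of 1.68.

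Anpep encodes aminopeptidase N (CD13), a zinc peptidase of the cell surface that trims peptides and is found on blood vessels that are growing. The peak spans 1440 bp in intron 15 of 20 (chr7:79828798-79830237), 18.7 kb downstream of the gene's start. It had 79.5, 78.9 and 62.3 CPM in CSE-KO cells, against 25.2, 16.2 and 24.7 CPM in WT cells, or 94, 54 and 43 counts against 17, 5 and 15. Every CSE-KO level was more than that of any WT library. The means were 73.6 ± 9.8 CPM in CSE-KO cells and 22.0 ± 5.08 CPM in WT cells, and the log2 fold change was 1.68 (SE 0.31, adjusted p = 0.0044, edgeR). Over the alternatives the adjusted p ran from 0.00336 to 0.10, and the call was lost without CSE-KO replicate 1 (1.61, adjusted p = 0.10) and without WT replicate 3 (1.74, adjusted p = 0.0516), while the fold change stayed between 1.56 and 1.78. The table has 1 other row for Anpep, an intergenic peak 10.8 kb upstream, with 14.6 ± 3.84 CPM in CSE-KO cells and 16.4 ± 3.02 CPM in WT cells (log2 fold change -0.15, SE 0.51, adjusted p = 0.98, edgeR). No peak of the table lies at the start of Anpep, so the intron peak cannot be set beside its promoter.

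The peaks next in p did not pass, and they were taken up after their values were seen. The Rptor peak in intron 3 (chr11:119685182-119686157) had 47.4, 65.8 and 42.0 CPM in CSE-KO cells, against 22.2, 16.2 and 13.2 CPM in WT cells. The groups did not overlap, and the log2 fold change was 1.55 (SE 0.36, adjusted p = 0.0838, edgeR; 0.0732 to 0.488 over the alternatives). The peak in intron 6 of Gtf2a1l, a germ-cell relative of the general transcription factor TFIIA, had 5.92, 23.4 and 8.69 CPM in CSE-KO cells, against 65.2, 0 and 70.8 CPM in WT cells. WT replicate 2 had no count there, and the floor of 3 counts is 9.69 CPM in that shallow library, so the groups overlapped. Its fold change on the log2 scale, -2.07 (SE 0.50, adjusted p = 0.105, edgeR), passed the threshold without WT replicate 2, the library at 0 (-2.52, adjusted p = 0.000264), and without CSE-KO replicate 2 (-2.80, adjusted p = 0.0332). With all 6 libraries the adjusted p was 0.66 with robust dispersion, 0.524 by limma voom and 1.0 by DESeq2, and over all alternatives it ran from 0.000264 to 1.0.

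2 further peaks of small p had lower mean levels in CSE-KO cells. The Lama2 peak, in intron 29 of the gene of a laminin chain of basement membranes, had 2.54, 13.2 and 4.34 CPM in CSE-KO cells, against 22.2, 22.6 and 39.5 CPM in WT cells (log2 fold change -2.19, SE 0.55, adjusted p = 0.146, edgeR). The Ppm1b peak, in intron 2 of the gene of a serine/threonine phosphatase, had 14.4, 16.1 and 33.3 CPM in CSE-KO cells, against 29.7, 58.2 and 85.6 CPM in WT cells. Its groups overlapped, and its fold change on the log2 scale, -1.47 (SE 0.37, adjusted p = 0.146, edgeR), passed without WT replicate 1 (-1.84, adjusted p = 0.0191). Over all alternatives the Ppm1b fold change ran from -1.91 to -0.99 and its adjusted p from 0.0191 to 0.759. The Lama2 groups did not overlap, but the CSE-KO levels there rested on 3 to 9 counts per library.

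Among peaks of at least the median abundance whose groups did not overlap, the 8 of smallest p in each direction were followed. Those with higher levels in CSE-KO cells were, beside Anpep, in Capzb, Ntn4, Trappc9, St3gal6, Chid1, Vac14 and Elf2. Capzb encodes the beta subunit of the protein that caps actin filaments, and its peak in intron 2 had 62.6, 70.2 and 65.2 CPM in CSE-KO cells, against 32.6, 42.0 and 26.3 CPM in WT cells (log2 fold change 1.01, SE 0.30, adjusted p = 0.374, edgeR). The peak in Ntn4, a netrin of vascular basement membranes, averaged 76.1 ± 17.3 CPM in CSE-KO cells and 43.0 ± 11.7 CPM in WT cells. That in Trappc9, a part of a vesicle-tethering complex, averaged 66.4 ± 7.7 CPM in CSE-KO cells and 35.2 ± 8.61 CPM in WT cells. The remaining log2 fold changes ran from 0.60 in Chid1 to 0.84 in Elf2, an ETS-family transcription factor, and the adjusted p of these 7 peaks from 0.374 to 0.57. The St3gal6 peak, in the gene of a sialyltransferase, is one of those that hold a noncoding start, that of Gm33475, and had 117, 101 and 107 CPM in CSE-KO cells, against 65.2, 87.2 and 64.2 CPM in WT cells.

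The 8 peaks with lower levels in CSE-KO cells were in Cacna2d1, Xxylt1, Col4a2, Atp6v0a2, Wipi1, Ehd4, Wwtr1 and Zfp521. The peak in intron 29 of Cacna2d1, a calcium channel subunit, had 33.8, 21.9 and 39.1 CPM in CSE-KO cells, against 68.2, 51.7 and 64.2 CPM in WT cells (log2 fold change -0.97, SE 0.30, adjusted p = 0.429, edgeR). The peak in intron 3 of Col4a2 averaged 52.8 ± 7.43 CPM in CSE-KO cells and 84.7 ± 9.25 CPM in WT cells (-0.68), beside the Gm46030 peak of the same gene, at which the groups overlapped. The best covered of the 8 was in intron 2 of Wwtr1, which encodes TAZ, a coactivator of the Hippo pathway. It had 109, 114 and 130.3 CPM in CSE-KO cells, against 149.8, 152 and 168 CPM in WT cells, and its fitted change of -0.42 on the log2 scale (SE 0.18) had an adjusted p of 0.637 by edgeR. All 8 had adjusted p between 0.429 and 0.658. The choice of non-overlapping groups of small p fixed the separation seen in the plot of these peaks, which therefore describes them and tests nothing.

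**Figure D4:**
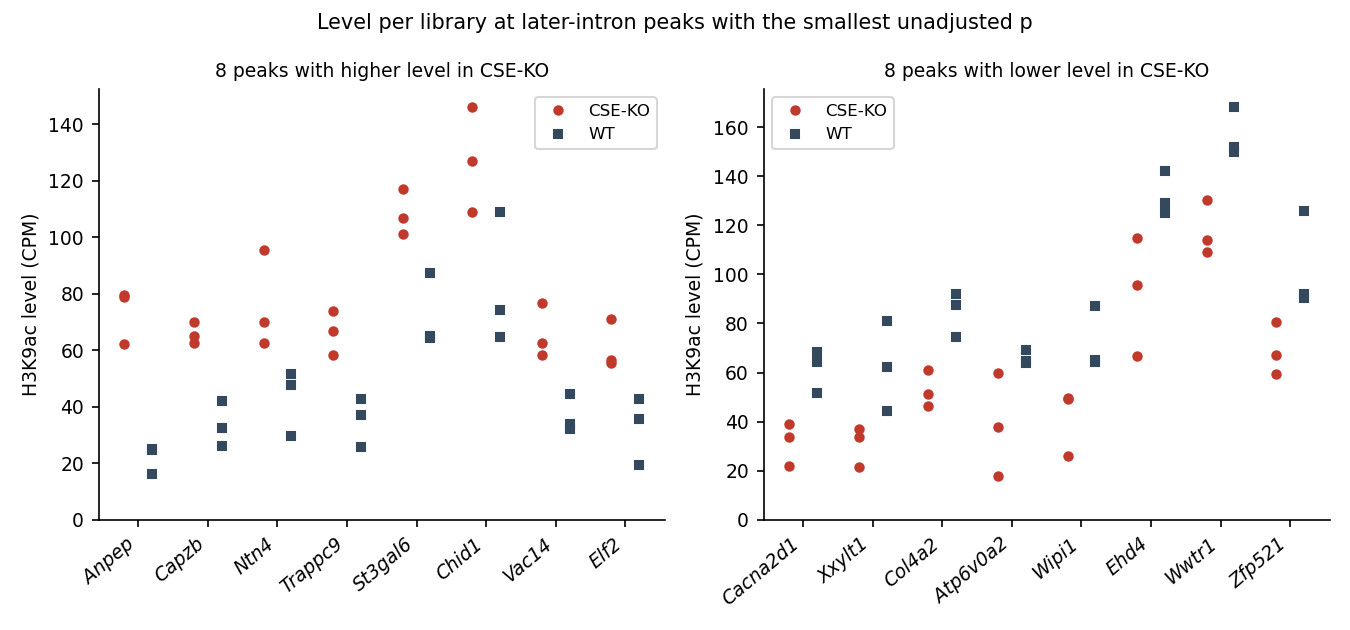
Level (CPM) in each library at the 8 later-intron peaks of smallest unadjusted p in each direction among abundant peaks with non-overlapping groups; circles are CSE-KO and squares WT libraries. Of the 16, the Anpep peak (62.3 to 79.5 CPM in CSE-KO, 16.2 to 25.2 CPM in WT) passed the threshold.

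None of the 8 most acetylated later-intron peaks passed the threshold. The highest was also the widest, a peak of 6565 bp in intron 8 of Pfkp, the platelet type of the glycolytic enzyme phosphofructokinase. It had 604, 463 and 442 CPM in CSE-KO cells, against 492, 355 and 419.6 CPM in WT cells, and the groups overlapped (log2 fold change 0.24, SE 0.13, adjusted p = 0.732, edgeR). The peak in Tm4sf1, a membrane protein abundant in endothelium, had 282, 251 and 326 CPM in CSE-KO cells, against 351, 372 and 327 CPM in WT cells (-0.28, SE 0.13, adjusted p = 0.682, edgeR), and the groups did not overlap. The peak in Pisd, which makes phosphatidylethanolamine in mitochondria, averaged 197 ± 57.8 CPM in CSE-KO cells and 275 ± 26.3 CPM in WT cells, with overlapping groups (-0.51, SE 0.16, adjusted p = 0.446, edgeR). After Tcf4 the others of the 8 most abundant were in Samd4, Det1, Aopep and Scmh1, at 177 to 232 CPM over the 6 libraries, with log2 fold changes from -0.24 to 0.19. Of the 5 widest peaks, those in 4930444P10Rik, Nos1ap and Prim2 spanned 3275 to 3626 bp but had only 31.6 to 36.8 CPM per kb, against 70.5 CPM per kb at Pfkp and 80.2 CPM per kb at Pisd.

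Genes that define endothelium carried later-intron peaks at similar levels in both groups. Of 33 genes of endothelial identity, 8 held 11 such peaks, of which 10 were tested. 0 passed by edgeR, 0 had an unadjusted p under 0.05, 5 fold changes lay above and 5 below 0, and the median was -0.01 (-0.104 with CSE-KO replicate 1 left out, 0.10 with CSE-KO replicate 3 left out). The peak in intron 2 of Erg, the ETS factor that maintains the endothelial state, had 175, 197 and 154 CPM in CSE-KO cells, against 163, 174 and 181 CPM in WT cells, with a log2 fold change of 0.02 (SE 0.16). That in Flt1, the VEGF receptor 1, averaged 85.7 ± 18.2 CPM in CSE-KO cells and 91.8 ± 9.46 CPM in WT cells, and that in Eng, the TGF-beta co-receptor endoglin, averaged 69.3 ± 9.37 CPM in CSE-KO cells and 73.2 ± 15.1 CPM in WT cells. At Pecam1, the junction protein CD31, taken up after its values were seen, the peak in intron 13 had 56.7, 48.2 and 60.8 CPM in CSE-KO cells, against 65.2, 90.5 and 65.8 CPM in WT cells, so the groups did not overlap, but the log2 change of -0.37 (SE 0.26) did not pass (edgeR, adjusted p = 0.804). The Cdh5 peak, in the gene of VE-cadherin, averaged 64.2 ± 8.05 CPM in CSE-KO cells and 74.6 ± 16.7 CPM in WT cells.

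As a check of the cell type, all 12 endothelial markers had a peak of some class in the table, and 5 of them (Cdh5, Eng, Erg, Flt1 and Pecam1) held 7 later-intron peaks, whose sum was 494 to 553 CPM in CSE-KO cells and 537 to 561 CPM in WT cells. Of 12 epithelial markers, 5 had any peak and 1 a later-intron peak, in Cdh1, with 8.69 to 23.7 CPM in CSE-KO cells and 6.58 to 32.3 CPM in WT cells. Of 10 macrophage and monocyte markers, 2 had any peak and 1 a later-intron peak, in Csf1r, with 21.2 to 23.4 CPM in CSE-KO cells and 16.3 to 38.8 CPM in WT cells. No marker of lymphocytes, smooth muscle or pericytes, or mesothelium had a peak, and 1 of 8 fibroblast markers had one, outside the later introns.

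Lung capillary genes gave 13 later-intron peaks in 5 genes, of which 11 were tested. 0 passed, 1 had an unadjusted p under 0.05, and 10 of 11 fold changes lay above 0, with a median of 0.33, against 0.053 and 55.9% above 0 over all tested later-intron peaks. The median was 0.193 without CSE-KO replicate 1 and 0.189 without WT replicate 3. Foxp1 alone held 8 of the 13 peaks and 7 of the 11 tested, with 6 fold changes above 0 and 1 below. The tally thus rests mostly on peaks of the same gene. The peak with the small p was in intron 2 of Clic5, a chloride-channel-like protein of capillary endothelium, with 66.0, 49.7 and 76.8 CPM in CSE-KO cells, against 35.6, 29.1 and 49.4 CPM in WT cells (log2 fold change 0.71, SE 0.29, adjusted p = 0.637, edgeR). The groups there stand just apart. The most acetylated peaks of the list, in Foxp1, a forkhead repressor, Calcrl, the receptor of adrenomedullin, and Plvap, the protein of endothelial diaphragms, overlapped between the groups, with log2 fold changes of 0.00, 0.01 and 0.43. Of the arterial, venous and lymphatic genes, Nrp2, a co-receptor of semaphorins and VEGF-C, and Selp, P-selectin, held 7 peaks, of which 6 were tested by edgeR, 0 passed and 0 had an unadjusted p under 0.05. Their median was 0.31, and 5 of 6 fold changes lay above 0, against 55.9% over all tested later-intron peaks. All 5 were at peaks of Nrp2, and the Selp peak had -0.20, so the tally rests on Nrp2 alone. Leaving out WT replicate 3 gave a median of 0.122, and leaving out WT replicate 1 gave 0.50. The 3 Nrp2 peaks of highest level lay in intron 2 and averaged 49.7 to 55.5 CPM in CSE-KO cells and 40.5 to 51.4 CPM in WT cells.

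Genes of angiogenesis and vascular signalling gave 48 later-intron peaks in 21 genes, with 41 tested and 0 passed. The median log2 fold change was 0.06. It was -0.03 with WT replicate 2 left out and 0.16 with WT replicate 1 left out. Unadjusted p under 0.05 was found at 4 of the 41 tested, against 8.34% of all tested later-intron peaks. Of these 4, 2 were higher and 2 lower. Both higher ones lay in intron 2 of Prkch, a protein kinase C. One had 26.2, 23.4 and 24.6 CPM in CSE-KO cells, against 10.4, 12.9 and 4.94 CPM in WT cells (1.46, SE 0.51, adjusted p = 0.524, edgeR), and the other 58.8 ± 2.04 CPM in CSE-KO cells and 38.4 ± 5.43 CPM in WT cells (0.58). The lower ones were the Col4a2 peak above and one in Rapgef1, an exchange factor of Rap1, with 20.3, 2.92 and 11.6 CPM in CSE-KO cells, against 23.7, 54.9 and 36.2 CPM in WT cells (-1.52, SE 0.47, adjusted p = 0.424, edgeR). The 2.92 CPM of Rapgef1 and the 4.94 CPM of the first Prkch peak rest on few counts. With 1 library left out, these fold changes ran from -2.29 to -1.12 at Rapgef1 and from 1.12 to 1.66 at that Prkch peak. The most acetylated peaks of the list overlapped between groups. That of Notch1 averaged 103 ± 5.57 CPM in CSE-KO cells and 123 ± 22.0 CPM in WT cells, that of Fgfr1, a growth factor receptor, 103 ± 25.6 CPM in CSE-KO cells and 98.9 ± 17.3 CPM in WT cells, and that of Acvrl1, the BMP receptor ALK1, 96.7 ± 24.7 CPM in CSE-KO cells and 93.3 ± 13.8 CPM in WT cells.

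Genes of adhesion, junctions and the cytoskeleton gave 69 peaks in 32 genes, with 66 tested, 0 passed, 33 fold changes on each side of 0 and a median of -0.01 (0.116 without WT replicate 1). An unadjusted p under 0.05 was found at 6 of the 66 tested, against 8.34% of all tested later-intron peaks. The 2 higher ones were in Dst, a cytoskeletal linker, and Tns1, a tensin. Of the 4 lower ones, 2 were in Lpp and 1 in Palld, genes of focal adhesions and actin fibres. The Dst peak averaged 92.6 ± 2.14 CPM in CSE-KO cells and 58.8 ± 17.5 CPM in WT cells (0.60, SE 0.24, adjusted p = 0.637, edgeR). The larger Lpp peak had 23.7, 21.9 and 15.9 CPM in CSE-KO cells, against 26.7, 58.2 and 54.3 CPM in WT cells (-1.10, SE 0.37, adjusted p = 0.498, edgeR). The most acetylated peaks of the list, in Tns3, Fermt2, the kindlin-2 gene, and Sorbs2, had log2 fold changes of -0.10, -0.19 and -0.09.

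Few later-intron peaks lay in genes of cysteine use or of histone acetylation itself. Of 39 genes of cysteine, sulfide and glutathione metabolism, 31 had a peak of some class and 1, Slc7a11, had later-intron peaks. Slc7a11 encodes the transport subunit of the cystine and glutamate exchanger. Its peak in intron 7 (chr3:50381760-50383096) had 56.7, 54.1 and 40.6 CPM in CSE-KO cells, against 54.9, 25.9 and 26.3 CPM in WT cells (log2 fold change 0.44, SE 0.32, adjusted p = 0.807, edgeR). Its peak in intron 2 (chr3:50437804-50438332) had 55.9, 43.9 and 55.0 CPM in CSE-KO cells, against 44.5, 67.9 and 44.4 CPM in WT cells (0.05, SE 0.29, adjusted p = 0.989, edgeR). The groups overlapped at both. Of 38 genes of histone acetylation, 6 held 7 peaks, 4 were tested, 0 passed and 2 had an unadjusted p under 0.05, both lower in CSE-KO cells. Of all tested later-intron peaks, 3.74% were lower at that p, and 4 peaks are few for such a share. The peak in Kat6b, an acetyltransferase, had 3.38, 10.2 and 15.9 CPM in CSE-KO cells, against 22.2, 29.1 and 23.0 CPM in WT cells (-1.40, SE 0.53, adjusted p = 0.596, edgeR). The tested peaks in Ncoa1, a coactivator, and Kat6a, an acetyltransferase, had log2 fold changes of -0.79 and 0.07, and the median of the 4 was -0.78.

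When the counts of later-intron peaks were added up for each host gene, an alternative chosen after the data were seen, 1447 of 1667 genes could be tested and 1 was called, Anpep (adjusted p = 0.00481, edgeR), which holds 1 such peak. An unadjusted p under 0.05 was found at 114 genes (7.88%), of which 70 were higher and 44 lower in CSE-KO cells. Of all single peaks tested, 3.01% were higher and 4.07% lower at that p. Sums and single peaks differ in depth, and peaks of other classes were not summed, so the 2 are not a matched comparison. Ston2, of endocytosis, had 89.7, 55.6 and 68.1 CPM over 2 peaks in CSE-KO cells, against 48.9, 25.9 and 26.3 CPM in WT cells, and the 3 Capzb peaks 94.8, 109.6 and 112 CPM in CSE-KO cells, against 66.7, 67.9 and 51.0 CPM in WT cells. Neither passed (adjusted p = 0.399 and 0.406, edgeR).

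As a class, later-intron peaks took a slightly larger share of the counts in CSE-KO libraries. The share was 10.15%, 9.80% and 9.89% in CSE-KO libraries, against 9.79%, 9.35% and 9.47% in WT libraries. The groups did not overlap, by a margin of about one unit in the second decimal, and the means were 9.95 ± 0.181% in CSE-KO and 9.54 ± 0.23% in WT libraries (exact two-sided permutation test, p = 0.10, the smallest that 3 against 3 allows). With MuLV-int repeat peaks left out of the total, an alternative added after the data were seen, the WT shares were 9.82%, 9.38% and 9.50%, the groups overlapped and p was 0.2 (exact test). Every CSE-KO library was also deeper than every WT library, and the part of depth in this difference was not tested.

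The shares of first-intron peaks were also higher in each CSE-KO library than in any WT library, while those of intergenic peaks overlapped. First-intron peaks held 5.66 ± 0.104% of the counts in CSE-KO and 5.40 ± 0.0483% in WT libraries (exact p = 0.1), and intergenic peaks within 50 kb 6.25 ± 0.0192% in CSE-KO and 6.23 ± 0.156% in WT libraries (exact p = 0.9). The ratio of later-intron to first-intron counts was 1.76 in each of the 3 CSE-KO libraries, against 1.80, 1.74 and 1.76 in the WT libraries, and the log2 difference of -0.007 was within their spread (exact permutation test, p = 0.9). The ratio to intergenic counts was 1.59 ± 0.0251 in CSE-KO and 1.53 ± 0.00198 in WT libraries (exact p = 0.1), and that to promoter counts was 0.454 ± 0.0106 in CSE-KO and 0.433 ± 0.00715 in WT libraries (exact p = 0.1). Within the later-intron peaks, the share in intron 2 was 3.01 ± 0.0503% in CSE-KO and 2.86 ± 0.0393% in WT libraries, and that in the last intron was 0.913 ± 0.0158% in CSE-KO and 0.907 ± 0.0314% in WT libraries. After adjustment over the 18 subclasses compared, the smallest p was 0.225 (exact tests).

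**Figure D5:**
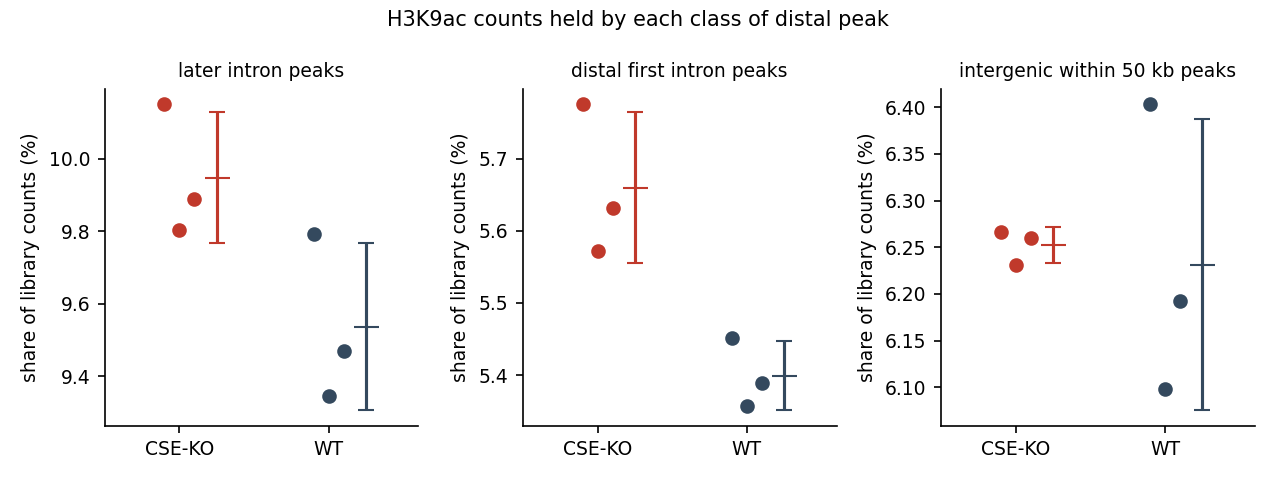
Share of each library's counts (%) in later-intron peaks, first-intron peaks beyond 3000 bp and intergenic peaks within 50 kb of a start; points are libraries, bars the mean and SD of 3 libraries, CSE-KO left of WT in each panel, and no axis starts at 0. The 3 CSE-KO shares of later-intron peaks (9.80% to 10.15%) lie above the WT shares (9.35% to 9.79%) by a narrow margin, as first-intron shares do, and intergenic shares overlap.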

How the data were processed

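H3K9ac CUT&RUN was deposited for 6 libraries, 3 CSE-KO and 3 WT. In the table that the authors deposited, each peak has its raw read count in each library. Tools named by the submitters' processing notes, without order or settings, are DESeq2 1.36.0, featureCounts, Picard 3.1.1, STAR 2.7.11a and Trimmomatic 0.39; for the peak caller, no name is given in the sources used here. Normalized values, fold changes and other columns deposited by the authors entered no test. In the names of the normalized columns, CSE-KO and WT have different numeric prefixes; if these mark batches, batch and genotype cannot be told apart.

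The notes name mm39, but the coordinates follow GRCm38: 61.2% of 2595 later-intron peaks imply a start within 100 bp of a gene end on GRCm38.p6 (median gap 22 bp), and 2583 of 2593 peaks with a matched host transcript lie within that gene. RefSeq gives the host genes and promoter windows.

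Peaks were filtered on their counts by filterByExpr (minimum count 10), scaled by TMM and tested two-sided by glmQLFit and glmQLFTest of edgeR 4.0.16 in R 4.3.3, with Benjamini-Hochberg adjustment over 16134 peaks and a threshold of 0.05. The code was tested on simulated data. CPM used TMM-scaled library sizes, and mean ± SD is over 3 libraries. A count of 0 stayed 0 in the levels and tests. The level of 3 counts was only given beside it as a limit, which covers counting error only. Shares were compared by exact permutation of the libraries. DESeq2 1.42.0 and limma 3.58.1 served as alternatives. Replicates were not duplicates (chi-square per degree of freedom 1.86 to 2.17).

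Named peaks were every called peak, the 8 of smallest p in each direction among peaks of at least median abundance with non-overlapping groups, the 8 most abundant, the 5 widest, the 5 genes with most peaks and up to 3 peaks of each gene list by level. Rptor, Gtf2a1l, Lama2, Ppm1b, Pecam1, Cdh5 and Ston2 were chosen after their values were seen. So were the list members named for an unadjusted p, the sums of Gnaq, Inpp4b and Ppm1h, and the tally of Zbtb20. The members and lists were chosen with earlier results of these data known. A few peaks and 1 gene list that these rules also name are not reported here.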

Additional observations from a re-analysis of the deposited data

How the results depend on the processing

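The count of 1 called later-intron peak and the median log2 fold change of 0.053 kept their values within the spread under RLE or plain library-size scaling, DESeq2, limma voom, no filter, robust dispersion and other distance limits. With peaks of a mean count of 50 or more only (270 tested) the count was 0, since Anpep lies below that limit. Leaving out 1 library in turn gave counts of 0 to 2 and medians of 0.044 to 0.106, the highest without WT replicate 1 (0.106); the spread of the median within groups was 0.0342. Plain library-size scaling moved the median of all tested peaks to 0.0189 and that of later-intron peaks to 0.072. The share difference of 0.411 percentage points ran from 0.31 to 0.54, and the log2 ratio to first-intron counts from -0.016 to 0.005, turning sign without WT replicate 1 (0.005; exact p = 0.4). Of 53 named peaks, 750 of 759 values kept direction and side of the threshold. Signs turned at Det1 (-0.11 without CSE-KO replicate 3), Tcf4 (0.06) and Scmh1 (0.10) without WT replicate 1, and 4930444P10Rik (0.13 without WT replicate 3). With 1 library left out, these ran from -0.11 to 0.37, -0.24 to 0.06, -0.28 to 0.10 and -0.32 to 0.13, in that order; the cause was not tested. Deviations of same-numbered libraries correlated weakly over all tested peaks (0.008 to 0.064, against -0.033 to 0.018 for libraries of other numbers). The highest value was that of replicate 1 of both groups, and such correlations cannot exclude pairing. A replicate block gave 1 call, a median of 0.06 and an adjusted p of 0.00403 for Anpep (edgeR). Depth limits these results. The median count per library was 20.3 over all later-intron peaks and 24.2 over those tested. The median SE of those tested was 0.35, so small changes were not detectable.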
